A study of Mus musculus with 19 samples.

Results

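Mt1, Mt2, Mt3, Mtf1 and Slc30a1 are the genes of the zinc and metal buffering system followed here, 5 of the 39179 genes counted in cerebral microvessel RNA of male C57BL/6 mice. They were chosen by symbol because the metallothioneins were low in the libraries of mice exposed to nicotine e-cigarette vapour, so the levels in those libraries are a description and carry no test. Of the counted genes, 27448 had at least 1 count over the 19 libraries, and all 5 members passed the filter on low counts in every comparison.

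The 19 libraries fall into 5 groups, named by their titles. Nic is e-cigarette vapour with nicotine (3 libraries), Nic-free is e-cigarette vapour without nicotine (4), and Room-air is room air (4). Smoke is smoke exposure (4) and air is a further set of room air (4), which carries the same exposure label as Room-air. All mice were of the same strain and sex and were bought at 7 weeks of age, and no dose, exposure time, age at collection or batch is given. Room-air was taken as the reference of both vapour groups and air as that of smoke from the titles alone, since no label ties a control set to an exposure. The labels do not say that replicates came from separate mice, so a p-value here reflects no more than the scatter among the libraries at hand.

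Metallothioneins are small cysteine-rich proteins that bind zinc and copper and take up part of the metal that is free in the cell. Mt1 and Mt2 are made in many tissues and are induced by zinc, cadmium, glucocorticoids and IL-6, whereas Mt3 is the brain form and is known from neurons and astrocytes. Mtf1 encodes the zinc-finger transcription factor that senses zinc and binds metal response elements, and Slc30a1 encodes ZnT1, the exporter that moves zinc out across the plasma membrane and is a target of MTF1. In brain, astrocytes are a main site of Mt1 and Mt2 expression.

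All 5 genes lie on the plus strand of GRCm38. The metallothioneins form a cluster on chromosome 8, with Mt3 (ENSMUSG00000031760) at chr8:94152607-94154146, Mt2 (ENSMUSG00000031762) at chr8:94172664-94173568 and Mt1 (ENSMUSG00000031765) at chr8:94179082-94180327. The annotation leaves 18.5 kb between Mt3 and Mt2 and 5.51 kb between Mt2 and Mt1. Mtf1 (ENSMUSG00000028890) is at chr4:124802104-124849800 and Slc30a1 (ENSMUSG00000037434) at chr1:191906767-191913247. Mt4, the fourth gene of the cluster and known from squamous epithelium, had no count in 17 of the 19 libraries and 0.0335 and 0.0741 counts per 1000000 in Room-air 2 and air 3, too few to be tested.

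The promoter stretches are shown because the genes share one regulator and the stretches differ in how many of its core sites they hold. Each stretch holds 250 bases before and 50 after the RefSeq start of the gene in GRCm38.p6, 5′ to 3′ on the plus strand, and capitals mark the metal response element core. The core was searched as TGCACNC or TGCGCNC on both strands. The stretches are at chr8:94178839-94179138 for Mt1, chr8:94172368-94172667 for Mt2, chr8:94152357-94152656 for Mt3 and chr1:191906531-191906830 for Slc30a1.
Mt1: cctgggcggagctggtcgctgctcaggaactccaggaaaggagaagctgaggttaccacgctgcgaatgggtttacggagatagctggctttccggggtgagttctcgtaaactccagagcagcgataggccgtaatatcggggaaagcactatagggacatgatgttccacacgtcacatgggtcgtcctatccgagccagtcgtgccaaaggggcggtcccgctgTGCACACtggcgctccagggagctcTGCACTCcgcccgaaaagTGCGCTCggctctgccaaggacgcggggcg
Mt2: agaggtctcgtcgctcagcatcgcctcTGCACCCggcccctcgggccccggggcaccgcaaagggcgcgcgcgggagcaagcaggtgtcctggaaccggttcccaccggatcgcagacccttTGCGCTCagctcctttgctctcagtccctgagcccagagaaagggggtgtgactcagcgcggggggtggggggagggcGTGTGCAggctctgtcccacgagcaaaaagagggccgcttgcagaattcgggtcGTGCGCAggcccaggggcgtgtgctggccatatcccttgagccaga
Mt3: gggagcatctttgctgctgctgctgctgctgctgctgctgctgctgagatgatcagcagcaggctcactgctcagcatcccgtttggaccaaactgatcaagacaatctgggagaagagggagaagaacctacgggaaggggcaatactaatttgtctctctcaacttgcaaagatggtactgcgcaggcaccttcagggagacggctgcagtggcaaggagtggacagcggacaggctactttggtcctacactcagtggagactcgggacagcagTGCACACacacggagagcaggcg
Slc30a1: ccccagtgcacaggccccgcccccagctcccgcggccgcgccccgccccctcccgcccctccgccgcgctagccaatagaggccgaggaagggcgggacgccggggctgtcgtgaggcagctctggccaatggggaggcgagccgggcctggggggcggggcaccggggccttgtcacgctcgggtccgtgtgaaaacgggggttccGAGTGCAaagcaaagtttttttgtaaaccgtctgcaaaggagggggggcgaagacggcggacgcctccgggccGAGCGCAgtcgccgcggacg

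Within these stretches Mt2 held 4 metal response element cores, Mt1 held 3, Slc30a1 held 2 and Mt3 held 1. The numbers depend on the RefSeq start used, and cores outside the stretches were not counted, so they do not rank the whole promoters. Of the 32851 promoter stretches of this length, 25.7% held at least 1 core, 7.11% at least 2, 1.97% at least 3 and 0.517% at least 4. The Mtf1 stretch held none of these letters. The antioxidant response element core TGACNNNGC was found once in Mt2 and once in Slc30a1, and 12.4% of all promoters hold it. The glucocorticoid response element, searched as the half-sites GNACA and TGTNC with 3 bases between them, was found once in Mt1, and 0.475% of all promoters hold it. The STAT motif TTCNNNGAA was found in none of the 5 stretches, and 8.3% of all promoters hold it. None of these motifs overlaps a metal response element core in the stretches shown, and a match describes letters, not binding.

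Levels are given as counts per 1000000 gene counts (CPM) of each library. Total gene counts, in units of 1000000, were 21.8 to 28.36 in Nic, 15.2 to 19.14 in Nic-free, 25.27 to 30.19 in Room-air, 7.94 to 12.61 in smoke and 9.76 to 13.49 in air. Both sets of smoke and air libraries were shallower than every library of the other groups, and no label says whether the series was prepared in batches. Defining endothelial markers were present in every library, with the 12 summing to 1070 to 4205 CPM, beside 5535 to 9981 CPM for 10 neuronal markers, 9226 to 31891 CPM for 8 oligodendrocyte markers and 879 to 27042 CPM for 9 choroid plexus and ependyma markers. Markers of neurons and glia were thus abundant in RNA labelled as microvessel, and none of these markers was at 0 in all libraries.

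Mt1 was lowest in the nicotine libraries and, on average, highest in the air set. It measured 127, 132 and 162 CPM in Nic 1 to 3, 252, 318, 328 and 281 CPM in Nic-free 1 to 4, and 195, 205, 192 and 231 CPM in Room-air 1 to 4. It measured 274, 421, 165 and 231 CPM in smoke 1 to 4 and 224, 407, 395 and 259 CPM in air 1 to 4. Every Nic library lay below every library of the other groups, and the smoke and air libraries were spread far more widely than the rest.

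Mt2, the second ubiquitous metallothionein, was the least abundant of the expressed ones. It measured 79.5, 93.1 and 103 CPM in Nic, 136, 168, 165 and 143 CPM in Nic-free, and 116, 116, 149 and 140 CPM in Room-air. It measured 144, 225, 94.7 and 142 CPM in smoke and 119, 248, 201 and 134 CPM in air. The Nic libraries were below all Nic-free and Room-air libraries, while smoke 3 lay within the Nic range. Mt2 shares 432 of its 588 exon bases with Gm45774 on the opposite strand, so its counts are uncertain to the extent that strand was not used in the counting.

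Mt3, the brain metallothionein, followed Mt1 closely. It measured 129, 114 and 164 CPM in Nic, 291, 345, 354 and 269 CPM in Nic-free, and 230, 248, 189 and 232 CPM in Room-air. It measured 331, 491, 206 and 253 CPM in smoke and 243, 400, 430 and 358 CPM in air. Again no Nic library reached the lowest library of another group.

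Mtf1 was nearly flat. It measured 36.7, 36.5 and 37.2 CPM in Nic, 42.3, 38.5, 31.7 and 33.4 CPM in Nic-free, and 36.5, 30.7, 32.6 and 31.2 CPM in Room-air. It measured 30.7, 22.5, 37.0 and 32.2 CPM in smoke and 30.5, 30.4, 32.2 and 33.4 CPM in air. The ranges of Nic-free, Room-air, smoke and air overlapped. All 3 Nic libraries lay above every Room-air library, as for 8.19% of all genes, but Room-air 1 was level with the lowest of them after rounding. Mtf1 shares 721 exon bases with 1110065P20Rik on the opposite strand. How the counting treated strand is not given in the sources used here, so how reads of the shared bases were assigned is not known. That neighbour averaged 19.3 CPM in Nic, 28.2 CPM in Nic-free, 23.0 CPM in Room-air, 31.5 CPM in smoke and 30.2 CPM in air.

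By group mean, Slc30a1, the zinc exporter, ran in nearly the opposite order to the metallothioneins. It measured 124, 88.3 and 129 CPM in Nic, 54.8, 64.4, 63.7 and 55.7 CPM in Nic-free, and 94.4, 77.3, 122 and 79.9 CPM in Room-air. It measured 54.4, 48.2, 67.7 and 64.5 CPM in smoke and 48.6, 47.4, 37.9 and 39.0 CPM in air. Nic and Room-air overlapped at the high end, and every Nic-free, smoke and air library lay below both of them. Within groups the opposite order did not hold throughout. Nic 3 was the highest Nic library in both Slc30a1 and Mt1, and Nic-free 2 and 3 stood above Nic-free 1 and 4 in both. In smoke the libraries ran in opposite orders for these genes, in Room-air nearly so, and in air the order was mixed. The opposite-strand gene 1700034H15Rik, which shares 468 exon bases with Slc30a1, averaged between 4.15 CPM in Nic-free and 5.28 CPM in Nic.

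**Figure D1:**
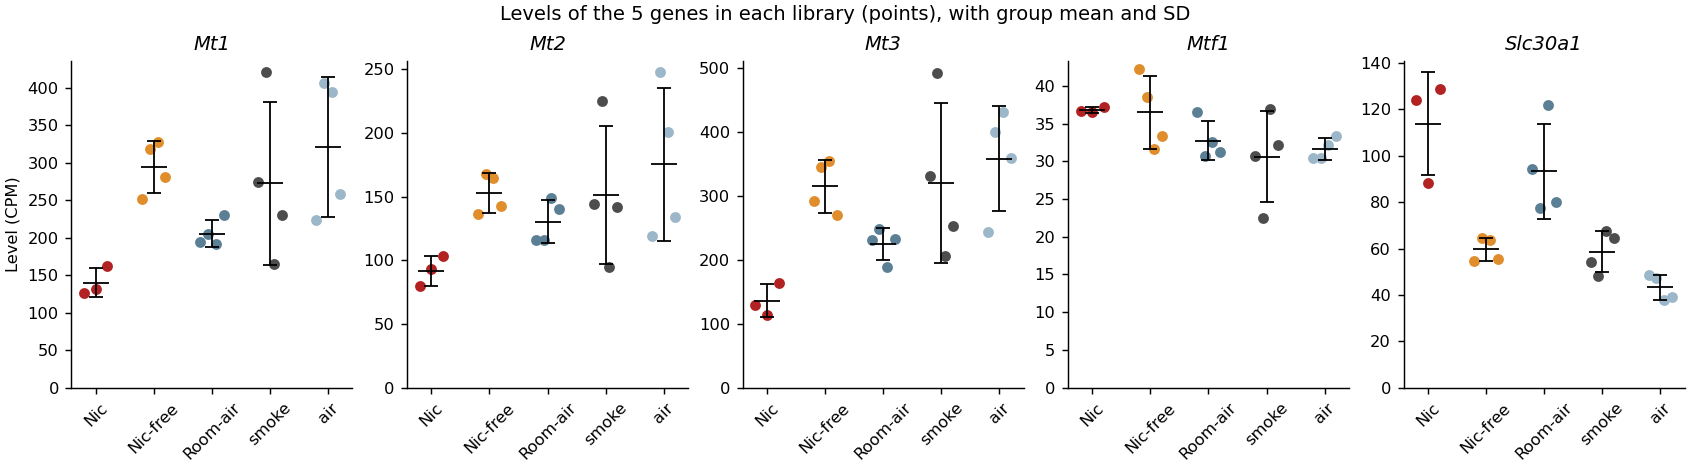
Levels of the 5 genes in counts per 1000000 gene counts (CPM, vertical axis from 0) in each of the 19 libraries (points), by group, with the group mean and SD (bars). The 3 Nic libraries sit lowest for Mt1 and Mt3, and the 4 air libraries span 37.9 to 48.6 CPM for Slc30a1, at the low end of that gene.

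The group means of Mt1 and Mt3 fell into nearly the same order. Mt1 averaged 140 ± 18.9 CPM in Nic (SD, n = 3), 295 ± 34.8 in Nic-free, 206 ± 17.8 in Room-air, 273 ± 109 in smoke and 321 ± 93.5 in air (SD, n = 4 each). Mt3 averaged 136 ± 25.5 CPM in Nic, 315 ± 41.4 in Nic-free, 225 ± 25.3 in Room-air, 320 ± 125 in smoke and 358 ± 82.2 in air. From high to low, Mt1 ran air, Nic-free, smoke, Room-air and Nic, and for Mt3 smoke stood just above Nic-free. The means of air, smoke and Nic-free lay within the SDs of smoke and air for Mt1, Mt2 and Mt3, and the steps to Room-air and then to Nic were each larger than the SDs of the vapour and Room-air groups for Mt1 and Mt3. For Mt2 the means were 91.8 ± 11.7 CPM in Nic, 153 ± 16 in Nic-free, 130 ± 16.7 in Room-air, 152 ± 54.2 in smoke and 176 ± 60.2 in air. Slc30a1 averaged 114 ± 22.2 CPM in Nic, 59.7 ± 5.1 in Nic-free, 93.5 ± 20.7 in Room-air, 58.7 ± 8.98 in smoke and 43.2 ± 5.55 in air, where Nic and Room-air, and Nic-free and smoke, did not differ beyond their SDs.

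Between genes, levels were compared per kilobase of the principal transcript, whose length is 549 bases for Mt1, 511 for Mt2, 536 for Mt3, 7631 for Mtf1 and 5244 for Slc30a1. In Nic the mean levels were 256 CPM per kb for Mt1, 180 for Mt2, 253 for Mt3, 4.82 for Mtf1 and 21.7 for Slc30a1. In Room-air they were 374 CPM per kb for Mt1, 255 for Mt2, 419 for Mt3, 4.29 for Mtf1 and 17.8 for Slc30a1. On this scale the metallothioneins were the most abundant of the 5 genes in both groups and Mtf1 the rarest.

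Against Room-air, the nicotine libraries held less of all 3 metallothioneins. The log2 fold changes were -0.57 ± 0.12 for Mt1, -0.53 ± 0.13 for Mt2 and -0.75 ± 0.14 for Mt3 (± SE), or 0.673, 0.694 and 0.594 of the Room-air level. All 3 had ranges below and apart from Room-air, where 8.8% of all 17235 genes tested did. Since the members were chosen on this contrast, no test is given and nothing is read from that count. Mtf1 was 0.15 ± 0.11 and Slc30a1 0.26 ± 0.16 on the same scale. In bulk RNA, fewer cells of a type and less RNA per cell cannot be told apart.

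Against Nic-free, whose label differs by the nicotine, the gaps were wider. The Nic-free libraries were also shallower than every Nic library and had more reads assigned to no gene (38.86 to 45.16% against 33.01 to 38.4%). An effect of nicotine therefore cannot be told apart from whatever else separates these sets. The log2 fold changes were -1.14 ± 0.12 for Mt1, -0.81 ± 0.13 for Mt2 and -1.29 ± 0.15 for Mt3, or 0.454, 0.571 and 0.41 of the Nic-free level. Slc30a1 was 0.86 ± 0.16 higher, or 1.81-fold, and Mtf1 differed by -0.06 ± 0.11. The metallothioneins were below the Nic-free range (13.2% of genes were) and Slc30a1 above it (20.7% of genes were, and 33.9% lay apart in either direction), and again no test was made of members chosen for their Nic values.

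Vapour without nicotine went with higher Mt1 and Mt3 and lower Slc30a1 than room air. Mt1 rose by 0.57 ± 0.11 log2 units (1.48-fold, adjusted p = 0.00357) and Mt3 by 0.53 ± 0.13 (1.45-fold, adjusted p = 0.011) in edgeR's quasi-likelihood test with Benjamini-Hochberg adjustment over all genes. Slc30a1 fell by 0.60 on the log2 scale with an SE of 0.15 (0.662-fold, adjusted p = 0.012). Mt2 differed by 0.28 ± 0.12 (adjusted p = 0.0946), with an interval of 2 SE on either side from 0.05 to 0.51, and Mtf1 by 0.21 ± 0.10 (adjusted p = 0.154). Mt1 and Mt3 were higher, and Slc30a1 lower, in 4 of 4 Nic-free libraries than in any Room-air library. Of the 5 members 3 were called, in a comparison where 21.8% of all genes were called, 11.3% higher and 10.4% lower. Ranges did not overlap for 26.8% of genes. The Room-air libraries also stand in the contrast that chose the members, so these p-values are not independent of the choice. When the air set took the place of Room-air, the direction turned for Mt1 (-0.13), Mt2 (-0.20), Mt3 (-0.19) and Slc30a1 (0.47), with adjusted p of 0.0711 to 0.815. With all 19 libraries in the fit, the calls of Mt1 (0.56, adjusted p = 0.117) and Mt3 (0.52, adjusted p = 0.128) were lost.

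Smoke against air shares no library with the contrast that chose the members. None of the metallothioneins passed the test. Mt1 differed by -0.21 ± 0.33 (adjusted p = 0.786, interval -0.87 to 0.46), Mt2 by -0.18 ± 0.34 (adjusted p = 0.816, interval -0.86 to 0.50) and Mt3 by -0.13 ± 0.30 (adjusted p = 0.857, interval -0.73 to 0.48), by the same edgeR test. The intervals stop below the Nic-free estimate for Mt1 (0.57) and Mt3 (0.53), hold it for Mt2 (0.28), and reach further on the lower side. Those estimates have intervals of their own, 0.34 to 0.79 for Mt1 and 0.27 to 0.80 for Mt3, which overlap those of smoke. The difference between the effects is tested directly below. Mtf1 differed by -0.03 ± 0.12 (adjusted p = 0.916, interval -0.27 to 0.21). Slc30a1 was 0.46 ± 0.11 higher (1.38-fold) and missed the threshold (adjusted p = 0.062), with 3 of 4 smoke libraries above every air library. DESeq2 (0.45, adjusted p = 0.0121) and edgeR with no filter on low counts (0.46, adjusted p = 0.0297) put Slc30a1 past the threshold. Of all 15232 genes tested, 1.6% were called, 1.08% higher and 0.519% lower, and ranges lay apart for 5.48% (higher) and 5.84% (lower). The members' groups overlapped for all 5. With Room-air in the place of air, the direction turned for Slc30a1 (-0.62, adjusted p = 0.0175), Mt1 (0.47), Mt2 (0.28) and Mt3 (0.58).

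The unexposed sets differed from each other. Slc30a1 was lower in air than in Room-air, with a log2 fold change of -1.08 ± 0.14 (0.474-fold, adjusted p = 9.43e-05), with all 4 air libraries below every Room-air library. Mt3 was higher in air by 0.71 ± 0.24 (1.64-fold, adjusted p = 0.0399), Mt1 by 0.69 ± 0.25 (adjusted p = 0.0529) and Mt2 by 0.47 ± 0.25 (adjusted p = 0.177), and Mtf1 was at -0.01 (adjusted p = 0.958). In this comparison 22.7% of 16557 genes were called, so 2 of 5 members is not far from the background. Ranges did not overlap for 26.4% of genes, 9.9% higher and 16.5% lower. The Mt3 call was lost without any one of Room-air 1 to 4 or air 2 to 4, with log2 fold changes of 0.61 to 0.76, and with no filter on low counts (0.70, adjusted p = 0.0968). The Mt1 difference passed with DESeq2 (0.69, adjusted p = 0.0189), in a fit of the Room-air and air libraries alone (0.69, adjusted p = 0.0205), and without air 1 (0.86) or air 4 (0.77). Both sets carry one exposure label and differ in depth, so whatever else separates them cannot be told apart from the set itself.

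The exposure effects themselves were compared as the smoke effect over air minus the Nic-free effect over Room-air, which uses no Nic library. For Slc30a1 the difference was 1.06 ± 0.20 log2 units (adjusted p = 0.00149), where the effect of smoke was 0.46 and that of Nic-free vapour -0.60 in their own fits. For Mt1 it was -0.77 ± 0.35 (adjusted p = 0.12), for Mt3 -0.66 ± 0.34 (adjusted p = 0.17), for Mt2 -0.46 ± 0.35 (adjusted p = 0.361) and for Mtf1 -0.23 ± 0.15 (adjusted p = 0.28). In this comparison 21.5% of genes were called. By its definition the difference is also smoke over Nic-free minus air over Room-air. For Slc30a1 the averages were 58.7 CPM in smoke and 59.7 in Nic-free, while air over Room-air was -1.08. Its difference thus lies mostly between the control sets. Without smoke 2, the library highest in metallothioneins, Mt1 (-1.12, adjusted p = 0.00908) and Mt3 (-1.01, adjusted p = 0.0129) passed.

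**Figure D2:**
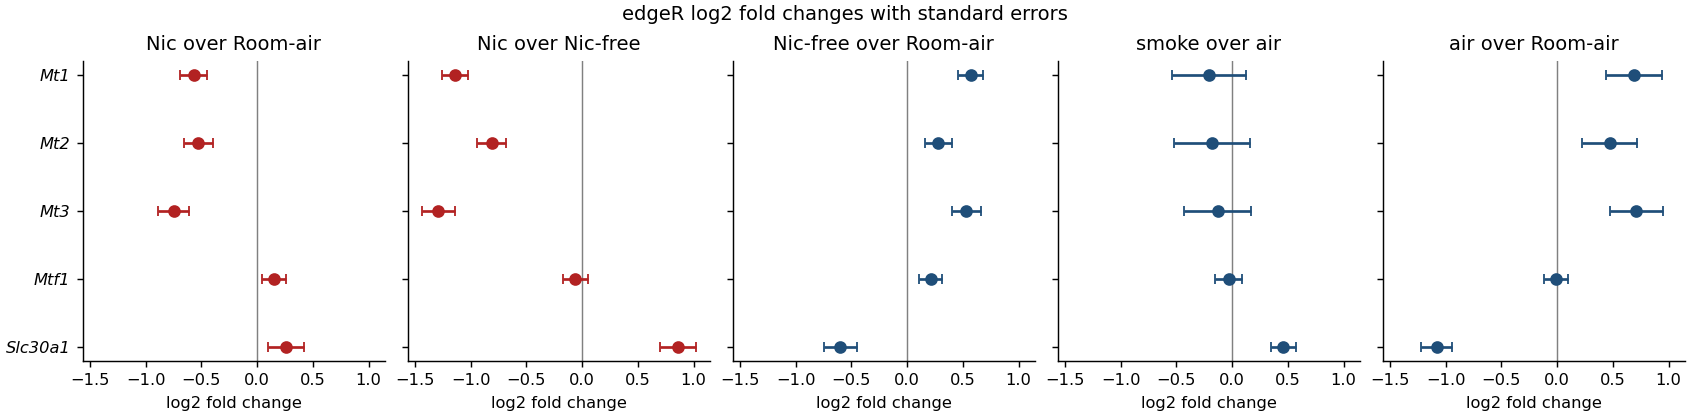
Log2 fold changes from edgeR (horizontal axis) of the 5 genes with their SE (bars), in the 5 comparisons, with those of the Nic libraries in red as a description without a test. Mt1, Mt2 and Mt3 lie left of 0 for Nic over Room-air (-0.57, -0.53 and -0.75) and right of 0 for Nic-free and air over Room-air, and Slc30a1 lies on the opposite side in each.

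The comparisons with Room-air share those 4 libraries, so their values are set side by side and not correlated. Over Room-air, Mt1 was -0.57 in Nic, 0.57 in Nic-free and 0.69 in air, Mt3 was -0.75, 0.53 and 0.71 in the same order, and Slc30a1 was 0.26, -0.60 and -1.08. Each pair of a metallothionein and the exporter had opposite signs in all of these. In smoke over air the signs were opposite too, but the metallothionein changes there were smaller than their SEs (-0.21 ± 0.33, -0.18 ± 0.34 and -0.13 ± 0.30 for Mt1, Mt2 and Mt3).

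The sum of Mt1, Mt2 and Mt3 gives the system in 1 value per library. It was 335, 340 and 429 CPM in Nic 1 to 3, 679, 831, 847 and 692 CPM in Nic-free, and 541, 569, 529 and 603 CPM in Room-air. It was 749, 1138, 465 and 627 CPM in smoke and 585, 1055, 1026 and 752 CPM in air. The lowest library, Nic 1, and the highest, smoke 2, stood 3.39-fold apart.

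The ratio of that sum to Slc30a1 averaged 3.29 ± 0.57 in Nic (SD, n = 3), 12.8 ± 0.432 in Nic-free, 6.24 ± 1.52 in Room-air, 13.5 ± 7.3 in smoke and 20.2 ± 6.3 in air (SD, n = 4 each), and ran from 2.71 in Nic 1 to 27.1 in air 3. On the log2 scale it was 3.67 ± 0.0486 in Nic-free and 2.61 ± 0.376 in Room-air, with no overlap (two-sided exact permutation test, p = 0.0286, the smallest that 4 against 4 allows, adjusted p = 0.172 over 12 such tests). It was 3.6 ± 0.759 in smoke and 4.27 ± 0.498 in air (exact permutation p = 0.2, adjusted p = 0.4). It was 4.27 ± 0.498 in air and 2.61 ± 0.376 in Room-air (exact permutation p = 0.0286, adjusted p = 0.172). None of the 12 passed the threshold after adjustment.

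**Figure D3:**
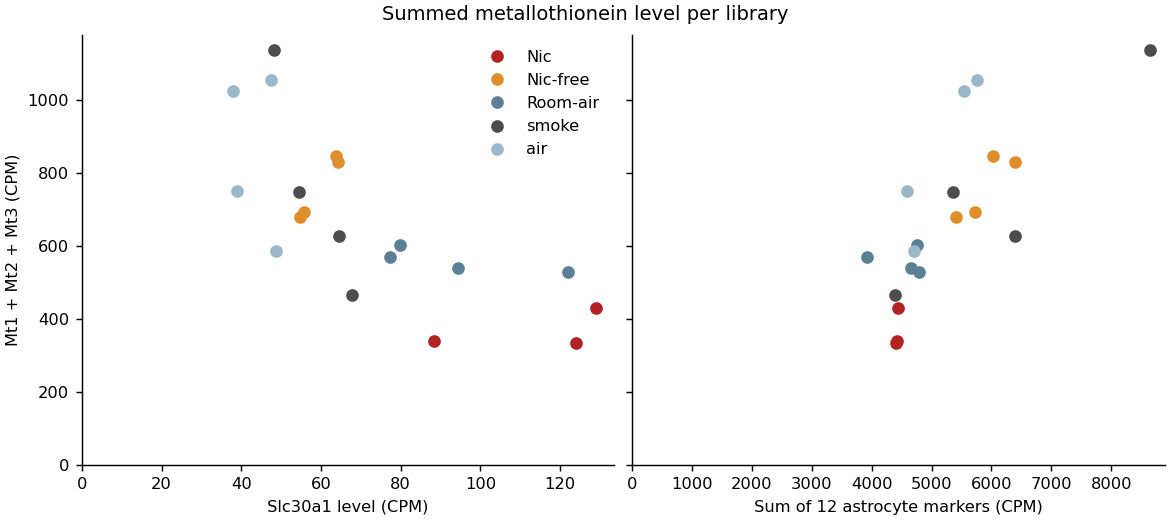
Summed level of Mt1, Mt2 and Mt3 (CPM, vertical axes) in each of the 19 libraries (points, coloured by group) against the level of Slc30a1 (left, CPM) and against the sum of 12 astrocyte markers (right, CPM). Nic libraries lie at 335 to 429 CPM of metallothionein and 88.3 to 129 CPM of Slc30a1, and smoke 2 is highest on both axes of the right panel.

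The 3 metallothioneins varied less in their proportions than in their summed level. Mt1 made up 38.2 ± 0.624% of the summed counts of the metallothioneins in Nic, 38.7 ± 1.42% in Nic-free, 36.6 ± 1.11% in Room-air, 36.5 ± 0.739% in smoke and 37.5 ± 1.97% in air, and ranged from 34.5 to 40.5% over the 19 libraries. Mt2 made up 25 ± 2.08% in Nic, 20.1 ± 0.46% in Nic-free, 23.3 ± 3.4% in Room-air, 20.5 ± 1.52% in smoke and 20.3 ± 2.38% in air, with a range of 17.9 to 28.1%. Mt3 made up 36.8 ± 2.7% in Nic, 41.2 ± 1.68% in Nic-free, 40.1 ± 3.66% in Room-air, 43.0 ± 1.8% in smoke and 42.2 ± 4.03% in air, with a range of 33.6 to 47.6%. On average the share of Mt2 was thus highest in Nic and that of Mt3 lowest there, as a description. Nic 2 held 27.4% Mt2 and 33.6% Mt3. Nic 1 and Nic 3 held 23.7 and 24.0% Mt2 and 38.4 and 38.2% Mt3, within the Room-air ranges of 20.4 to 28.1% and 35.7 to 43.6%. The highest Mt2 share of all libraries was that of Room-air 3. None of the tests of the shares in the other comparisons passed after adjustment, and their unadjusted exact permutation p ran from 0.0571 to 0.886.

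**Figure D4:**
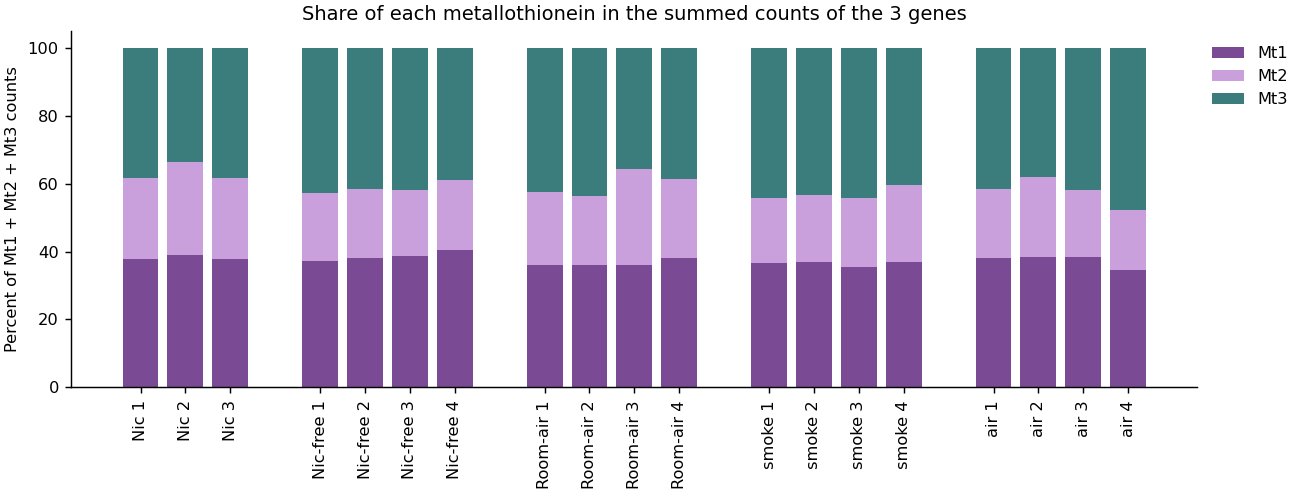
Share of Mt1, Mt2 and Mt3 (percent of their summed counts, vertical axis from 0 to 100) in each of the 19 libraries, grouped by exposure. The share of Mt1 lies between 34.5 and 40.5%, that of Mt2 between 17.9 and 28.1% and that of Mt3 between 33.6 and 47.6%, while the summed level varies 3.39-fold.

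Genes whose profile over the 19 libraries was most like each metallothionein were found by the root mean square difference of centred log2(CPM + 1) values, among protein-coding genes with a mean of at least 10 CPM. For Mt1 these were Selenow (0.15), Mt3 (0.15), Rplp1 (0.15), Gstm5 (0.16) and Mt2 (0.16), against a median of 0.56 over 10825 genes. For Mt2 they were Mt1 (0.16), Gstm5 (0.19), Timp4 (0.19), Ift27 (0.19) and Rps7 (0.20), and for Mt3 they were Mt1 (0.15), Rplp1 (0.17), Uqcr11 (0.17), Cox5b (0.17) and Mif (0.18). Selenow, which encodes selenoprotein W, averaged 262 CPM in Nic, 558 in Nic-free, 331 in Room-air, 507 in smoke and 577 in air. Rplp1, a ribosomal protein gene, averaged 392 CPM in Nic, 762 in Nic-free, 520 in Room-air, 755 in smoke and 815 in air. Except for Timp4 with 5496 bases and Ift27 with 1013, all of these genes have principal transcripts of 945 bases or fewer at Gstm5 or 954 at Rps7.

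Transcript length moved with the metallothioneins in all 5 comparisons. In Nic over Room-air, the 864 tested coding genes with principal transcripts of up to 1000 bases had a median log2 fold change of -0.14, and 8.8% of them were called lower, against 0.03 and 2.54% for the 14317 longer ones. In Nic over Nic-free the medians were -0.35 and 0.04, with 37.6% of short and 11.8% of longer genes called lower. In Nic-free over Room-air the medians were 0.17 and -0.01, with 22.6% of short and 10.3% of longer genes called higher. In smoke over air the medians were -0.10 and 0.03, and in air over Room-air 0.25 and -0.02, with 29.1% of short and 9.81% of longer genes called higher there. Mt1 and Mt3 lay farther from 0 than the quartiles of the short genes in Nic over Room-air, Nic over Nic-free, Nic-free over Room-air and air over Room-air. Mt2 did so in Nic over Room-air and Nic over Nic-free, but lay within the quartile in Nic-free over Room-air (0.28 against 0.37) and at it in air over Room-air (0.47). For smoke over air all of them lay within the short genes' quartiles of -0.25 and 0.06. The part of length or RNA quality in the members' values was not tested.

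**Figure D5:**
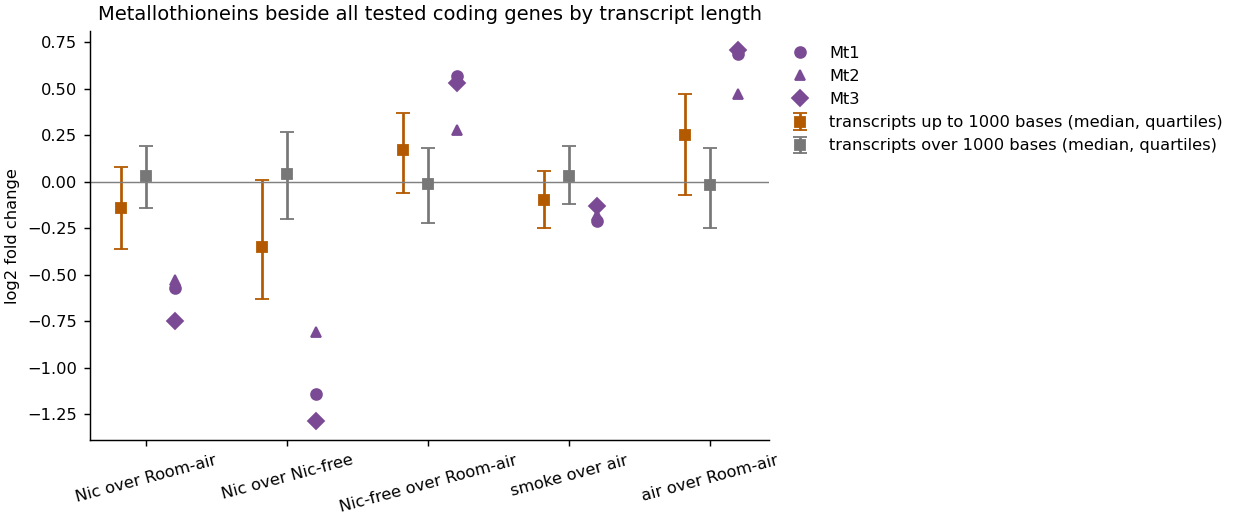
Log2 fold changes (vertical axis) of Mt1, Mt2 and Mt3 in 5 comparisons beside the median and quartiles of all tested coding genes with principal transcripts up to 1000 bases and over 1000 bases. Medians of the short genes range from -0.35 (Nic over Nic-free) to 0.25 (air over Room-air), on the same side of 0 as the metallothioneins each time.

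Markers of astrocytes, neurons and oligodendrocytes were set beside the metallothioneins. The 12 astrocyte markers summed to 4407 to 4440 CPM in Nic, 5407 to 6392 in Nic-free, 3927 to 4794 in Room-air, 4398 to 8656 in smoke and 4594 to 5756 in air. The 10 neuronal markers summed to 6448 to 6645 CPM in Nic, 8598 to 9981 in Nic-free, 6087 to 6832 in Room-air, 5535 to 9162 in smoke and 7492 to 9731 in air. The 8 oligodendrocyte markers summed to 9226 to 15181 CPM in Nic, 18766 to 20578 in Nic-free, 12762 to 15398 in Room-air, 16745 to 24438 in smoke and 22870 to 31891 in air. None of these markers was at 0 in all libraries, and all 3 sums were lower in every Nic library than in any Nic-free library.

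Relative to Nic-free, Nic had 8 of 12 astrocyte, 6 of 10 neuronal and 6 of 8 oligodendrocyte markers lower and none higher. Over all genes 12.4% were called in each direction there. Relative to Room-air, Nic-free had 6 astrocyte markers higher and 1 lower, 8 neuronal higher and 5 oligodendrocyte higher. Of all genes 11.3% were called higher and 10.4% lower in Nic-free. Relative to Room-air, the air set had 1 astrocyte marker higher and 1 lower, 4 neuronal higher and 4 oligodendrocyte higher. Of all genes 10.7% were called higher and 12% lower in air. Of 8 microglia markers, 2 were lower in Nic over Nic-free, 5 higher in Nic-free over Room-air, and 1 higher and 1 lower in air over Room-air. In these comparisons the neuronal and oligodendrocyte lists therefore moved in the direction of the metallothioneins. In Nic over Room-air, where the metallothioneins were below Room-air, the list medians were -0.06 for astrocytes, 0.02 for neurons and -0.20 for oligodendrocytes. For smoke over air the median was 0.26 for astrocytes, against the sign of the metallothioneins, and -0.39 for neurons and -0.36 for oligodendrocytes, with it. Smoke 2 was the highest and smoke 3 the lowest of the smoke libraries both in the astrocyte sum and in metallothioneins. The part of astrocyte, neuron or oligodendrocyte RNA in these values was not tested.

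Endothelial and pericyte markers went with Slc30a1. The 12 endothelial markers summed to 2208 to 4205 CPM in Nic, 1636 to 2449 in Nic-free, 1989 to 2943 in Room-air, 1901 to 2582 in smoke and 1070 to 1965 in air. Of them, 8 were called higher and none lower in Nic over Nic-free, where 12.4% of all genes were called higher. In Nic-free over Room-air 4 were lower and none higher, where 10.4% of all genes were lower. In air over Room-air 9 were lower and none higher, where 12% of all genes were lower. The sum was 4205, 2208 and 4145 CPM in Nic 1 to 3, where Slc30a1 was 124, 88.3 and 129 CPM. Of 6 pericyte markers, 4 were called higher in Nic over Nic-free and 5 lower in air over Room-air. Choroid plexus and ependyma markers summed to 2117 to 7205 CPM in Nic, 879 to 18600 in Nic-free, 17787 to 25030 in Room-air, 1779 to 27042 in smoke and 3722 to 24754 in air. The part of vessel or choroid plexus RNA in the Slc30a1 values was not tested.

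Calls among the zinc transporters other than ZnT1 are set beside the shares over all genes. Of 21 tested, 1 was higher and none lower in Nic over Room-air, where 3.89% of all genes were called, 1.22% higher and 2.67% lower. That share rested on single libraries, since edgeR called 0 genes without Room-air 2 (3581 at an unadjusted p under 0.05) or without Nic 1 (2424), 2956 without Nic 3, and DESeq2 called 1645 of all 17235. This was Slc39a10, a zinc importer of the ZIP family (264 ± 32.6 CPM in Nic, 193 ± 14.5 in Room-air, 0.43 ± 0.09, adjusted p = 0.0289). In Nic over Nic-free, where 24.8% of genes were called, 12.4% in each direction, 4 were higher and 1 lower. Slc39a8, a plasma membrane importer of zinc and manganese, rose by 0.78 ± 0.19, Slc39a2 by 0.58 ± 0.15, Slc30a7, which loads zinc into the secretory pathway, by 0.53 ± 0.10 and Slc39a10 by 0.45 ± 0.09, whereas Slc39a11 was at -0.40 ± 0.12. In Nic-free over Room-air, where 21.8% of genes were called, 11.3% higher and 10.4% lower, 5 of 21 were lower and none higher. They were led by Slc39a7, which releases zinc from the endoplasmic reticulum (-0.99 ± 0.29, 4.70 CPM in Nic-free against 9.74 in Room-air). Slc39a12 (-0.43 ± 0.12), Slc30a7 (-0.35 ± 0.09) and Slc39a9 (-0.33 ± 0.08) followed. Between the air sets, where 22.7% of genes were called, 10.7% higher and 12% lower, 6 of 21 were lower in air and none higher. They were led by Slc39a7 (-1.23 ± 0.27), Slc39a9 (-0.52 ± 0.12), Slc39a14 (-0.42 ± 0.11) and Slc39a12 (-0.42 ± 0.13). In smoke over air, where 1.6% of all genes were called, edgeR called none of 20, with 3 at an unadjusted p under 0.05 and 1 call by DESeq2. The medians of the list, -0.01 in Nic over Room-air, 0.03 in Nic over Nic-free, -0.02 in Nic-free over Room-air, 0.14 in smoke over air and -0.19 in air over Room-air, stood beside 0.03, 0.02, 0.00, 0.02 and -0.00 for all genes.

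Several of these calls rested on single libraries. Slc39a10 in Nic over Room-air was lost without Room-air 1, 2 or 4 or Nic 1 (0.34 to 0.45), Slc39a8 without Nic 1 (0.62), and Slc39a11 without Nic-free 2, 3 or 4 or Nic 1 (-0.41 to -0.33). Among the calls of Nic-free over Room-air, Slc39a7 was lost without Room-air 1 or 2 or Nic-free 1, 2 or 4 (-1.06 to -0.83), Slc39a12 without Room-air 3 or Nic-free 2, 3 or 4 (-0.40 to -0.37) and Slc30a7 without Nic-free 2 (-0.30). Among the calls of air over Room-air, Slc39a12 was lost without Room-air 1 or 3 or air 1 or 3 (-0.40 to -0.36). The calls of Slc39a2, Slc30a7 and Slc39a10 in Nic over Nic-free, of Slc39a9 in Nic-free over Room-air, and of Slc39a7, Slc39a9 and Slc39a14 in air over Room-air held without any one library. With the air set in place of Room-air, Slc39a7 (0.22), Slc39a9 (0.19) and Slc30a7 (0.04) turned their direction in the Nic-free comparison and the call of Slc39a12 (-0.02) was lost.

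Copper is the other metal that metallothioneins hold. Of 10 copper genes, Sod1, the copper and zinc superoxide dismutase, was lower in Nic than in Room-air (107 ± 16.9 CPM in Nic, 146 ± 7.16 in Room-air, -0.46 ± 0.12, adjusted p = 0.0461), and this call was lost without any one library other than Nic 3 (-0.49 to -0.36). Over all genes, edgeR called 3.89% in Nic over Room-air, 24.8% in Nic over Nic-free and 21.8% in Nic-free over Room-air (10.4% lower). It called 1.6% in smoke over air and 22.7% in air over Room-air. Of the copper genes, 2 were higher and 3 lower in Nic over Nic-free. Atp7a, the copper-exporting ATPase, rose by 1.00 ± 0.29 and Slc31a2 by 0.39 ± 0.11, while Sod1 was at -0.69 ± 0.12, Commd1 at -0.56 ± 0.12 and Ccs, the copper chaperone of SOD1, at -0.40 ± 0.12. The calls of Sod1 and Commd1 held without any one library, while Atp7a (0.81 to 1.00), Ccs (-0.40 to -0.33) and Slc31a2 (0.32 to 0.40) were each lost in 3 to 5 of 7 such fits. For Nic-free over Room-air, Atp7a (-1.71 ± 0.27), the copper importer gene Slc31a1 (-1.08 ± 0.31) and Slc31a2 (-0.39 ± 0.11) were lower and no gene higher. Of these Atp7a held without any one library, Slc31a1 was lost without any of Room-air 1 to 4 or Nic-free 2 or 3 (-1.14 to -0.97), and Slc31a2 without Nic-free 3 or 4 (-0.36 to -0.32). With the air set as the control all of them turned, to 0.43 for Atp7a, 0.01 for Slc31a1 and 0.26 for Slc31a2. Between the air sets, 3 were higher in air, Commd1 (0.48 ± 0.12), Sod1 (0.47 ± 0.13) and Cox17 (0.45 ± 0.11), and 3 lower, Atp7a (-2.15 ± 0.49), Cp, which encodes ceruloplasmin (-0.93 ± 0.30), and Slc31a2 (-0.66 ± 0.12). Of these only Cp was lost, without Room-air 1 or 3 or air 1, 3 or 4 (-0.97 to -0.57). In smoke over air edgeR called none, with 3 at an unadjusted p under 0.05 and none by DESeq2. The medians of the list were -0.20 in Nic over Room-air, 0.03 in Nic over Nic-free, -0.24 in Nic-free over Room-air, 0.09 in smoke over air and -0.18 in air over Room-air.

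Of 7 other genes reported as MTF1 targets, Slc40a1, which encodes the iron exporter ferroportin, and Slc39a10 were higher in Nic than in Room-air and none lower. Of all genes 1.22% were called higher and 2.67% lower there. Slc40a1 averaged 57.8 ± 16.3 CPM in Nic and 33.4 ± 4.72 in Room-air (0.77 ± 0.16, adjusted p = 0.0249), a call lost without Room-air 2 or 4 or Nic 1 (0.57 to 0.73). In Nic over Nic-free, where 12.4% of all genes were called in each direction, both were higher (0.52 ± 0.16 for Slc40a1 and 0.45 ± 0.09 for Slc39a10) and 2 were lower. Those were Selenow, at 262 ± 42.5 CPM in Nic and 558 ± 62.2 in Nic-free (-1.16 ± 0.13, adjusted p = 0.000212), and Csrp1, at 220 ± 60.6 CPM in Nic and 365 ± 13.6 in Nic-free (-0.80 ± 0.14). In Nic-free over Room-air, where 11.3% of all genes were called higher, these genes were the 2 called. Both were higher, Selenow by 0.80 ± 0.12 (adjusted p = 0.000728) and Csrp1 by 0.43 ± 0.13. In air over Room-air, where 10.7% of all genes were called higher and 12% lower, they were higher as well, by 0.84 ± 0.20 and 0.56 ± 0.17. Slc39a10 was lower there (-0.30 ± 0.09). In smoke over air, where 1.08% of all genes were called higher, 1 gene was called. This was Slc40a1, at 39.0 ± 3.10 CPM in smoke and 24.8 ± 6.72 in air (0.68 ± 0.15, adjusted p = 0.0495). Leaving out 1 library at a time lost the call of Slc40a1 in 7 of 8 fits for smoke over air (0.56 to 0.69) and in 5 of 7 for Nic over Nic-free (0.33 to 0.54), and that of Csrp1 in 6 of 8 for Nic-free over Room-air (0.40 to 0.43) and in 4 of 8 for air over Room-air (0.46 to 0.55). Slc39a10 was lost in 4 of 8 for air over Room-air (-0.28 to -0.25), and Selenow held in all of them. With the air set as the control, Selenow (-0.05) and Csrp1 (-0.14) turned in the Nic-free comparison, and with Room-air as the control of smoke the call of Slc40a1 (0.27) was lost. The medians of the list were -0.03 in Nic over Room-air, 0.12 in Nic over Nic-free, 0.25 in Nic-free over Room-air, 0.04 in smoke over air and -0.01 in air over Room-air.

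Glucocorticoid-induced genes, of interest because Mt1 and Mt2 are among the known responders, moved the other way from the metallothioneins in Nic over Nic-free, Nic-free over Room-air and air over Room-air. Of 15 tested, 7 were higher and none lower in Nic over Nic-free, where 12.4% of all genes were called in each direction. They were led by Map3k6 (34.0 ± 10.1 CPM in Nic, 8.19 ± 3.01 in Nic-free, 1.98 ± 0.28), the cell cycle inhibitor gene Cdkn1a (1.76 ± 0.11), Angptl4 (1.26 ± 0.26) and Zbtb16 (1.16 ± 0.20). Against Room-air, 11 were lower in Nic-free and none higher, where 10.4% of all genes were called lower and 11.3% higher. They were led by Map3k6 (-2.39 ± 0.27), Cdkn1a (-2.10 ± 0.10), Angptl4 (-2.04 ± 0.24) and the kinase gene Sgk1 (-1.74 ± 0.25). In air over Room-air, where 12% of all genes were called lower and 10.7% higher, 11 were lower and none higher. Map3k6 was at -2.51 ± 0.26, Cdkn1a at -2.15 ± 0.13, Sgk1 at -1.77 ± 0.29 and Angptl4 at -1.75 ± 0.25. The calls of the genes named for these comparisons held without any one library. In smoke over air, where 1.08% of all genes were called higher and 0.519% lower, 2 were higher. The call of the clock gene Per1 (134 ± 9.38 CPM in smoke, 70.7 ± 12.8 in air, 0.94 ± 0.11, adjusted p = 0.0101) was lost without air 3 or smoke 1 (0.91 each). That of Nfkbia, the NF-kB inhibitor gene (0.68 ± 0.13, adjusted p = 0.0387), was lost without air 2, 3 or 4 or smoke 1, 2 or 4 (0.59 to 0.70). In Nic over Room-air, where 3.89% of all genes were called, edgeR called none, with 8 at an unadjusted p under 0.05 and 7 calls by DESeq2. The medians of the list were -0.21 in Nic over Room-air, 0.47 in Nic over Nic-free, -1.0 in Nic-free over Room-air, 0.32 in smoke over air and -1.43 in air over Room-air. With the air set as the control of Nic-free, Map3k6 (0.10), Cdkn1a (0.04) and Sgk1 (0.02) turned and the call of Angptl4 (-0.29) was lost, and with Room-air as that of smoke Per1 (-0.11) and Nfkbia (-0.82) did.

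IL-6 and STAT3 signalling, a further known inducer of Mt1 and Mt2, had most of its calls between the air sets. Of 8 tested, edgeR called none in Nic over Room-air, where 3.89% of all genes were called, with 1 at an unadjusted p under 0.05 and none by DESeq2. It called none in Nic-free over Room-air, where 21.8% of all genes were called, with 3 at an unadjusted p under 0.05 and none by DESeq2. The list had 1 call in Nic over Nic-free, where 12.4% of all genes were called lower. It had 1 of 7 tested in smoke over air, where 1.08% of all genes were called higher. Cntfr, the receptor gene of ciliary neurotrophic factor, was lower in Nic than in Nic-free (102 ± 11.5 CPM in Nic, 122 ± 9.23 in Nic-free, -0.33 ± 0.11, adjusted p = 0.0412), a call lost without Nic-free 2, 3 or 4 or Nic 1 (-0.32 to -0.22). Il6st, which encodes the shared receptor gp130, was higher in smoke than in air (128 ± 9.84 CPM in smoke, 97.9 ± 8.46 in air, 0.41 ± 0.09, adjusted p = 0.0443), a call lost without any one of the 8 libraries (0.36 to 0.43) and turned with Room-air as the control (-0.25). In air over Room-air, where 22.7% of all genes were called and 12% were lower, 4 of 8 were lower and none higher. These were the receptor genes Il6ra (-1.37 ± 0.26), Osmr (-1.16 ± 0.36) and Il6st (-0.64 ± 0.14) and the transcription factor gene Stat3 (-0.42 ± 0.13). Osmr was lost without Room-air 3 or air 1, 3 or 4 (-1.16 to -0.67) and Stat3 without Room-air 1 or 3 or air 3 or 4 (-0.41 to -0.29). The medians of the list were 0.03 in Nic over Room-air, 0.30 in Nic over Nic-free, -0.22 in Nic-free over Room-air, 0.23 in smoke over air and -0.45 in air over Room-air.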

How the data were processed

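Per the labels' protocols, RNA of cerebral microvessels was isolated with TRIzol and polyadenylated RNA was sequenced as single-end, strand-specific reads of 80 nt. The deposited values are raw counts of reads per Ensembl gene, which the authors made with STAR and HTSeq on mm10, per the submitters' processing notes. Versions, annotation and strand setting are not given in the sources used here. The 5 summary lines of each file name no gene and were left out of totals and tests. Reads assigned to no gene were 28.66 to 45.16% of all counted and unassigned reads. The values are whole numbers, and no pair of libraries of the same group agreed within counting noise.

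Symbols, positions and transcript lengths are from GENCODE M21. The 5 members and all gene lists were chosen with earlier results of these data known. Genes named beyond the members are those of the lists with the largest changes past the threshold, up to 4 in each direction per list and comparison, Mt4, and the 5 profiles most like each metallothionein.

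Counts were tested with edgeR 4.0.16 in R 4.3.3 (TMM, filterByExpr, robust glmQLFit, glmQLFTest, two-sided, Benjamini-Hochberg over all genes, threshold 0.05). Nic, Nic-free and Room-air shared 1 fit, smoke and air another, and all 19 libraries served for air against Room-air and for the difference between effects. The procedure was tested on simulated data. A standard error is the log2 fold change over the root of F. CPM are counts per 1000000 gene counts. Alternatives were DESeq2 1.42.0 and its size factors, no filter, a replicate block, other sets of libraries in the fit, the other air set as control, and leaving out each library. Intervals and errors rest on reads without molecular identifiers.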

Additional observations from a re-analysis of the deposited data

Results flagged for a closer look

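In groups of 4 libraries, a library was set apart when its gap to the nearest other took most of the group's range. Of 32 groups examined 2 held such a library, where about 1 in 20 would by chance. Mt1 made up 38.3% of the metallothionein counts in Room-air 4, above the next library at 36.2% and the lowest at 36.0%. It made up 34.5% in air 4, below the next at 38.2% and the highest at 38.6%. Neither was tested further.

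The smoke effect on Slc30a1, taken over air, exceeded the nicotine-free vapour effect, taken over Room-air, by 1.06 ± 0.20 log2 units (SE, edgeR adjusted p = 0.00149). Slc30a1 was higher in 3 of 4 smoke libraries than in any air library, and lower in 4 of 4 Nic-free libraries than in any Room-air library. By its definition the same value is smoke over Nic-free minus air over Room-air. Slc30a1 averaged 58.7 ± 8.98 CPM in smoke and 59.7 ± 5.1 in Nic-free (SD, n = 4 each), while air over Room-air was -1.08. The value of 1.06 thus lies mostly between the control sets, and why these differ was not tested.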

How the results depend on the processing

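The number of genes past the threshold moved with the processing. For Nic over Room-air it was 670, with 1645 by DESeq2, 348 with all 19 libraries in the fit, 4961 with air as control and 0 to 2956 on leaving out 1 library. For Nic-free over Room-air it was 3753, with 699 against air and 2186 (without Nic-free 2) to 3534 on leaving out 1 library. For smoke over air it was 244, with 924 by DESeq2, 466 with no filter, 519 with all 19 libraries, 1027 against Room-air and 1 (without smoke 1) to 192 on leaving out 1 library. Leaving out 1 library gave 2401 (without Nic 1) to 4679 for Nic over Nic-free, against 4273, and 2415 (without air 3) to 3496 for air over Room-air, against 3761.

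Replicate numbers did not pair the libraries, since same-numbered libraries correlated at -0.435 to 0.477 in their deviations from the group means. In no comparison did every library correlate best with its own number. The replicate block left 5 genes in smoke over air, 472 in Nic over Room-air, 3418 in Nic over Nic-free, 3274 in Nic-free over Room-air and 3487 in air over Room-air, and it ended no call of a member.

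With air as the control of Nic, Mt1 was at -1.28, Mt2 at -1.02, Mt3 at -1.48 and Slc30a1 at 1.32. In Nic-free over Room-air, air as the control turned Mt1 (-0.13), Mt2 (-0.20), Mt3 (-0.19), Slc30a1 (0.47), Atp7a (0.43), Cdkn1a (0.04), Csrp1 (-0.14), Map3k6 (0.10), Selenow (-0.05), Sgk1 (0.02), Slc30a7 (0.04), Slc31a1 (0.01), Slc31a2 (0.26), Slc39a7 (0.22) and Slc39a9 (0.19), and all 19 libraries in the fit weakened Mt1 (0.56) and Mt3 (0.52). In smoke over air, Room-air as the control turned Mt1 (0.47), Mt2 (0.28), Mt3 (0.58), Slc30a1 (-0.62), Il6st (-0.25), Nfkbia (-0.82) and Per1 (-0.11). Slc30a1 passed there by DESeq2 (0.45) and with no filter (0.46). In air over Room-air, Mt1 passed by DESeq2 (0.69) and in a fit of those groups alone (0.69), and Mt3 did not with no filter (0.70). The cause of these changes was not tested.

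Leaving out 1 library gave 0.56 to 0.86 for Mt1, 0.61 to 0.89 for Mt3 and -0.04 to 0.04 for Mtf1 in air over Room-air, -0.49 to 0.03 for Mt2, -0.47 to 0.04 for Mt3 and -0.13 to 0.05 for Mtf1 in smoke over air, and -1.12 to -0.58 for Mt1 and -1.01 to -0.48 for Mt3 in the smoke effect minus the Nic-free effect. The signs turned for Mt2 without air 2 (0.03), for Mt3 without smoke 3 (0.04) and for Mtf1 without smoke 2 (0.05) in smoke over air, and for Mtf1 without Room-air 1 (0.04), air 1 (0.04) or air 2 (0.01) in air over Room-air. Few libraries and the wide spread of smoke and air limit what could be detected for the metallothioneins there.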
